A study of Triticum aestivum with 12 samples.

Results

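Expansins and xyloglucan endotransglucosylase/hydrolases (XTHs) are the wall proteins described here, across roots and shoots of bread wheat (Triticum aestivum) grown with and without salt. Members were the genes whose description in any of the 4 deposited comparison tables contained "expansin" or "xyloglucan endotransglucosylase". They numbered 107 of the 83486 genes in the normalized count table, with 42 expansins and 65 XTHs. Only 24878 genes stood in the comparison tables, which list genes that passed thresholds in a comparison, and 5159 of these carried a description. The members were thus chosen by the levels of the same 12 libraries, through the 4 comparisons of these tables, and 101 of them came in through shoots against roots in control plants. A salt table held 20 members, and 87 were listed only for a difference between shoots and roots. For this reason no p-value is printed for a member in any comparison. Levels, differences and counts of calls, including those of the difference between the salt responses of shoots and roots, are given below as descriptions.

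Expansins are small secreted proteins that loosen plant cell walls at acid pH without cutting the polysaccharides, and they fall mainly into alpha and beta classes. XTHs act on xyloglucan, a hemicellulose that binds cellulose, and most of them cut a xyloglucan chain and rejoin it to another. Grass walls hold little xyloglucan, yet grass genomes carry large XTH families.

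The plants were of the cultivar Najran. Salt was given after sowing as irrigation with 200 mM NaCl, and the controls had tap water alone (0 mM NaCl). Roots and shoots were each sequenced from 3 control and 3 salt-treated replicates, which gave 4 groups of 3 libraries. Each replicate was a pool of plants, so the spread between libraries is that between pools. The labels do not say whether roots and shoots with the same number came from the same pool. Values are the authors' normalized estimated counts, called normalized counts below. They summed to between 13890189 and 15863307 in a root library and to between 18565098 and 25371113 in a shoot library. Summed over the 65 genes described as chlorophyll a-b binding proteins, the 6 shoot libraries held 287955 to 498174 and the 6 root libraries 218 to 935, as their tissue labels would have it.

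All 107 genes were annotated as protein-coding, with 51 on the A, 43 on the B and 12 on the D subgenome and 1 on no placed chromosome. Of these, 55 lay in 14 clusters of members of the same family less than 1000000 bases apart. Wheat carries near-identical copies of most genes on its A, B and D chromosomes, and neighbours in a cluster can be similar as well. Reads shared by such copies were divided among them by estimation, so the split between copies is uncertain throughout. The libraries did not mark the strand, and reads of overlapping genes cannot be told apart.

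Most of the expansins were more abundant in roots. For 27 of the 42 expansins all 6 root libraries lay above all 6 shoot libraries, for 7 all 6 lay below, and for 8 the tissues overlapped. The XTHs leaned the other way, with 33 of 65 higher in every shoot library, 18 higher in every root library and 14 overlapping. Over the 51487 genes that passed the filter across the 12 libraries, 15.1% were higher in every root library and 18.3% were higher in every shoot library. Nothing is read from this difference, because the rule used the tissue comparisons. Of the members, 39 expansins and 64 XTHs passed that filter. In bulk tissue, fewer cells that express a gene and less of its RNA per cell cannot be told apart.

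A gene was called where limma's test on log2(normalized count + 1) gave a Benjamini-Hochberg adjusted p under 0.01 over all genes tested and a difference of at least 1 on the log2 scale. These calls are not those of the authors, whose own test listed 18 members for salt in roots and 6 for salt in shoots. In control plants 100 members passed the filter (a normalized count of 10 or more in 3 or more of the 6 libraries), 41 were called higher in shoots (19.6% of all genes tested) and 51 lower (16.7%). Among them 7 expansins and 34 XTHs were higher in shoots, and 30 expansins and 21 XTHs were lower. In salt-treated plants 88 members passed, with 38 called higher (17.4%) and 36 lower (12.3%). In control plants 49 of the 100 passed through the libraries of 1 tissue alone, and in salt-treated plants 36 of the 88, so these had to differ.

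**Figure D1:**
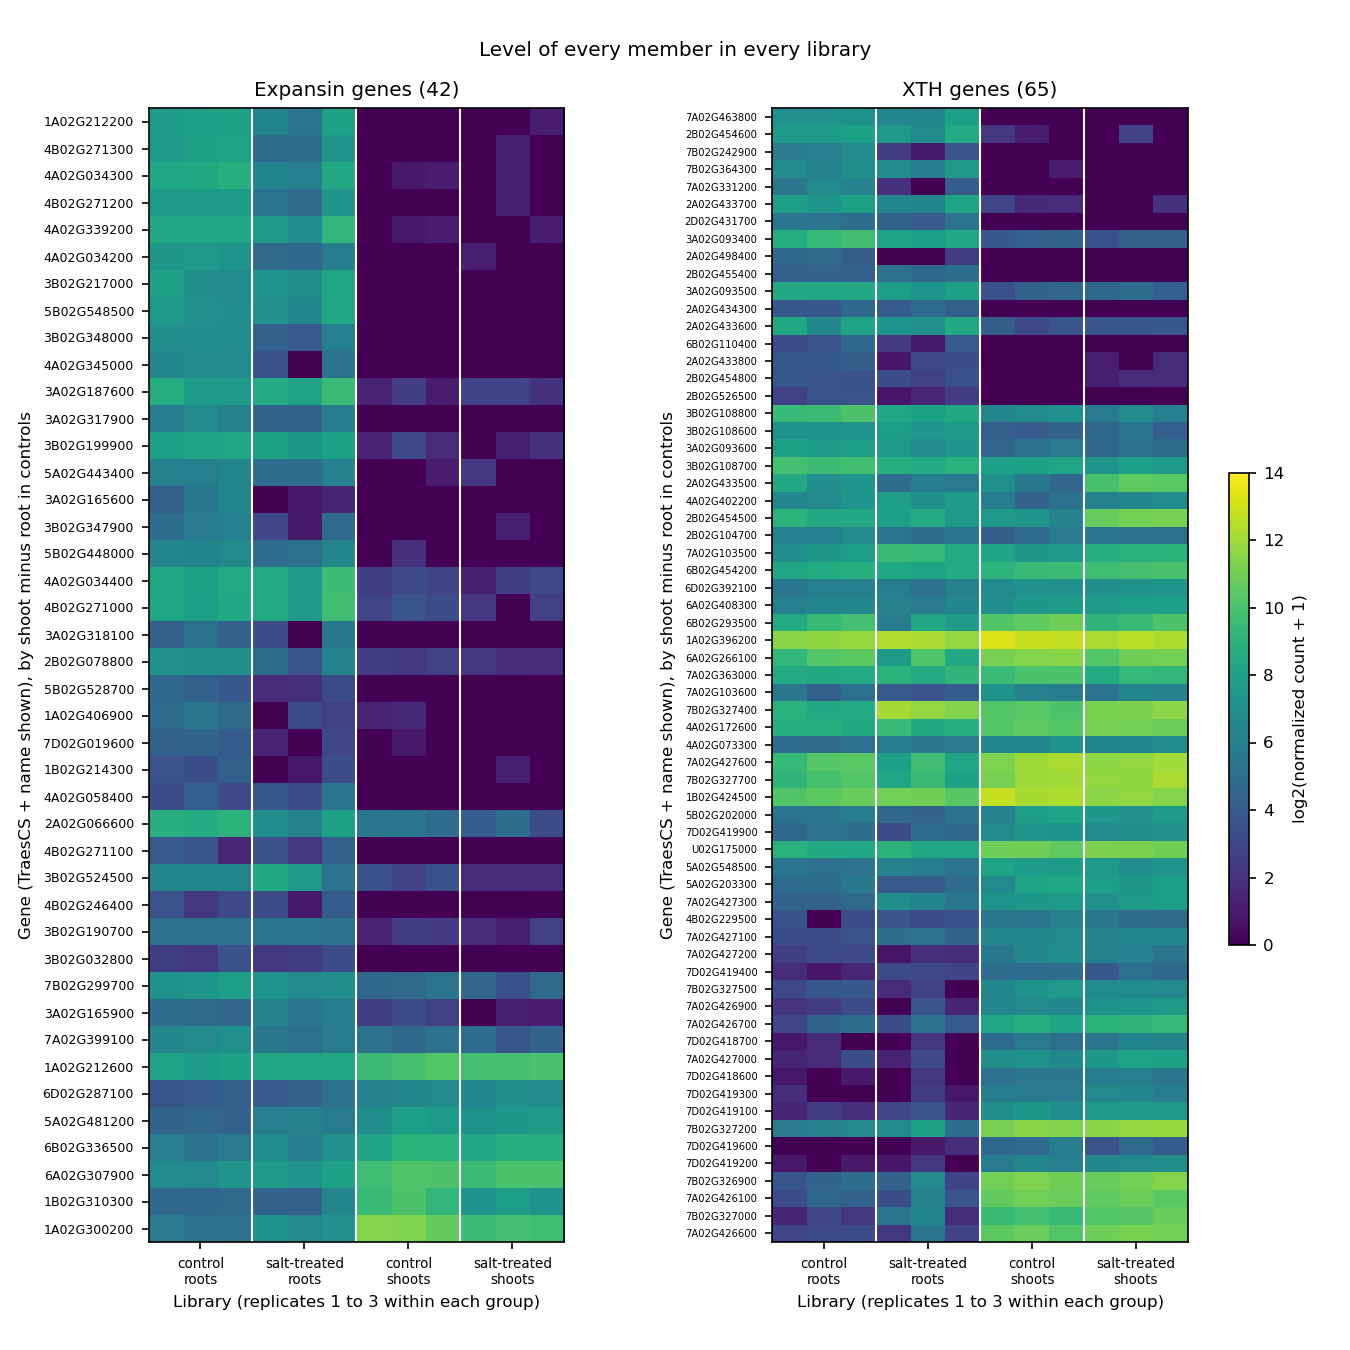
Heat maps of log2(normalized count + 1) for the 42 expansins (left) and the 65 XTHs (right) in the 12 libraries, 3 per group, with genes ordered by the difference between control shoots and control roots. In the upper rows, the shoot columns are at or near 0, and 35 of the expansins have a higher mean in control roots than in control shoots.

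Many root expansins were hardly seen in shoots. In all 6 shoot libraries 35 members stood at 3 normalized counts or less, namely 23 expansins and 12 XTHs, and 21 of these were listed at 0 in every shoot library. With the same limit in roots, TraesCS7D02G419600, an XTH, was the single member at or under 3 in all 6 libraries. It reached 26, 26.6 and 59.4 in control shoots. TraesCS7D02G418600, TraesCS7D02G418700, TraesCS7D02G419200 and TraesCS7D02G419300 missed this limit through root salt replicate 2 alone, at 3.9, 3.7, 3.7 and 4.6. These counts thus depend on the limit and on single libraries. Nothing is read from them, because the rule used the tissue comparisons.

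Beta-expansins stood on both sides. TaEXPB5 (TraesCS1A02G212200, chromosome 1A: 374958311 to 374959901) had 216, 234 and 259 in control roots and 0 in each control shoot. EXPB2 (TraesCS1A02G212600), in the same 511 kb cluster, had 265, 215 and 253 in control roots and 780.4, 951 and 1227 in control shoots. The first was thus listed at 0 in control shoots, while the other was more abundant there than in roots. The third member with a named class, described as Beta-expansin 1a (TraesCS3B02G524500), had 86.5, 81.7 and 81.8 in control roots and 9.76, 5.71 and 10.6 in control shoots.

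Per kilobase of gene span, introns included, the XTHs held the highest levels in both tissues. TraesCS1A02G396200 led in control roots at 2008 per kb and in control shoots at 4784 per kb, and TraesCS1B02G424500 came next at 993 and 3796 per kb. The most abundant expansin of control roots was TraesCS2A02G066600 at 472 per kb, followed by TraesCS4A02G034300 at 326 per kb. In control shoots TraesCS1A02G300200 led the expansins at 1248 per kb, ahead of TraesCS6A02G307900 at 616 per kb and EXPB2 at 579 per kb. Each of these levels is a mean of 3 libraries.

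The shoot side of the XTH family sat largely in 3 clusters on the homoeologous chromosomes 7A (9 genes over 1585 kb), 7B (6 genes over 1010 kb) and 7D (8 genes over 995 kb). In the coordinates of the deposited tables they ran from 619165624 to 620750688 on 7A, from 580884188 to 581894632 on 7B and from 538139330 to 539134556 on 7D. All 23 genes were higher in every control shoot than in every control root, against 29.3% of all genes tested that did not overlap in this direction, and all 23 were called, with log2 differences from 1.62 to 7.42. The rule used this comparison, and 12 of the 23 passed the filter through the shoot libraries alone, so nothing is read from these counts. The gene with the largest difference, TraesCS7A02G426600, held 1429, 1807 and 1239 in control shoots and 6.72, 7.78 and 8.38 in control roots. At the far end of the 7A and 7B clusters, TraesCS7A02G427600 and TraesCS7B02G327700 were abundant in roots as well, at 654, 1271 and 1369.7 and at 574, 988 and 1228 in control roots. The copies on 7D were the weakest of the 3 clusters. Their summed level in control shoots was 453, 614 and 544.5, against 6282, 9004 and 8562 for the 7A cluster and 8500.2, 11905 and 10942 for the 7B cluster.

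**Figure D2:**
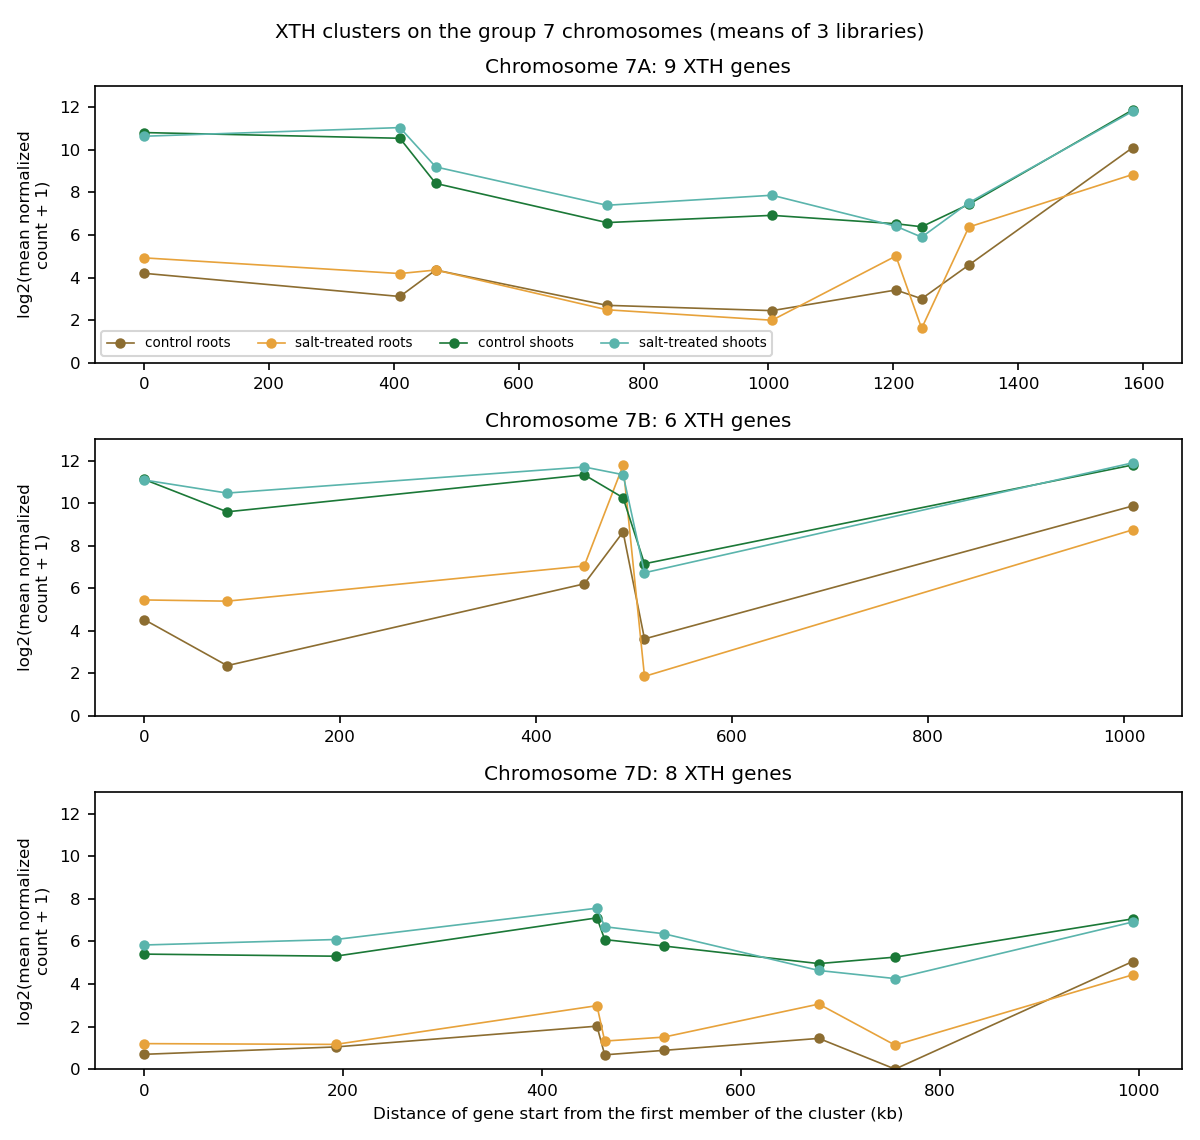
Log2(mean normalized count + 1) of each XTH gene in the clusters on chromosomes 7A, 7B and 7D, by its distance in kb from the first gene of the cluster; points are means of 3 libraries per group. Shoots lie above roots at every gene except TraesCS7B02G327400, 1 of the 6 genes on 7B, where salt-treated roots lie above both groups of shoots.

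Under salt 20 of the 23 genes were called higher in shoots than in roots (17.4% of all genes tested), and 22 did not overlap (28.6%). The rule used this comparison too, and 9 of the 23 passed the filter through the shoot libraries alone. Nothing is read from these counts either. The exception to the tissue order was TraesCS7B02G327400 (7B: 581372974 to 581376095), with 4486, 3356 and 2645 in salt-treated roots and 2337, 2379.5 and 3025 in salt-treated shoots. The 2 groups overlap, and the log2 difference of shoots minus roots was -0.41 with a standard error of 0.22. Its neighbours in the cluster did not share this. TraesCS7B02G327200, 1 of the adjacent members, held 101, 260.2 and 32.3 in salt-treated roots, and TraesCS7B02G327500 held 2.3, 5.56 and 0.

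Salt raised 3 XTHs in shoots and lowered 2 expansins there, and the other members that could be tested did not pass. These were 3 called higher (2.30% of all genes tested) and 2 called lower (2.99%) among 61 members that passed the filter. In the same tissue 15 members had all salt-treated libraries above all controls (16.4%) and 9 had all below (20.2%). The median log2 difference was -0.39 over the 10 expansins tested and 0.13 over the 51 XTHs, beside -0.01 over all genes. Without shoot control replicate 1 or 2, or without shoot salt replicate 1 or 3, 1 member was called lower in place of 2, the call of TraesCS1A02G300200 being lost. With any 1 library left out 2 or 3 members were called higher.

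The largest rise in shoots was that of TraesCS2A02G433500, an XTH on chromosome 2A (686700695 to 686703339). Control shoots held 128, 50.4 and 23.3, and salt-treated shoots 959, 1462 and 1369. Every salt-treated library lies far above the highest control, and the log2 difference was 4.51 with a standard error of 0.52. TraesCS2B02G454500 on the homoeologous chromosome 2B (649475798 to 649478584) had 190.3, 158 and 72.2 in control shoots and 1658, 2195 and 2264 in salt-treated shoots. It too showed no overlap, with a log2 difference of 3.95 and a standard error of 0.33. Summed over both genes, shoots went from 319, 208 and 95.5 to 2617, 3657 and 3634.

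Their neighbours stayed low in shoots. Both genes begin a cluster, of 5 XTHs over 124 kb on 2A and of 4 over 500.2 kb on 2B. The next gene on 2A, TraesCS2A02G433600, held 16.3, 7.61 and 11.7 in control shoots and 12.3, 12.3 and 12.8 in salt-treated shoots, while its control roots held 320.1, 90.2 and 269.8. TraesCS2B02G454600, the next on 2B, held no more than 5.87 in any shoot library and 182 to 248 in control roots. Every gene of these 2 clusters had a higher mean in control roots than in control shoots. In control shoots the first genes already had the highest means, 67.4 on 2A and 140 on 2B. No other gene of the clusters had a mean above 11.85 there. In salt-treated shoots the first genes had means of 1263.5 and 2039, further above the rest.

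TraesCS7B02G327400 rose in both tissues. In roots it went from 474, 349.8 and 370.2 to 4486, 3356 and 2645, a log2 difference of 3.11 with a standard error of 0.23. In shoots it went from 1221, 1369 and 1064 to 2337, 2379.5 and 3025, a log2 difference of 1.08 with a standard error of 0.16. The call in shoots was lost without any 1 of the 6 shoot libraries, and that in roots without root control replicate 2 or 3. Neither tissue showed an overlap, and 2 of the 3 salt-treated roots lay above all salt-treated shoots although all control roots lay below all control shoots. TraesCS7A02G103500, an XTH elsewhere on 7A (63368701 to 63379219), followed the same directions without being called here. The authors listed it for salt in both tissues. It held 116, 171 and 219 in control roots and 706, 644 and 375 in salt-treated roots, and 289, 166 and 192 in control shoots against 421, 480.3 and 503 in salt-treated shoots. Its groups did not overlap in either tissue, and the log2 differences were 1.76 and 1.15.

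**Figure D3:**
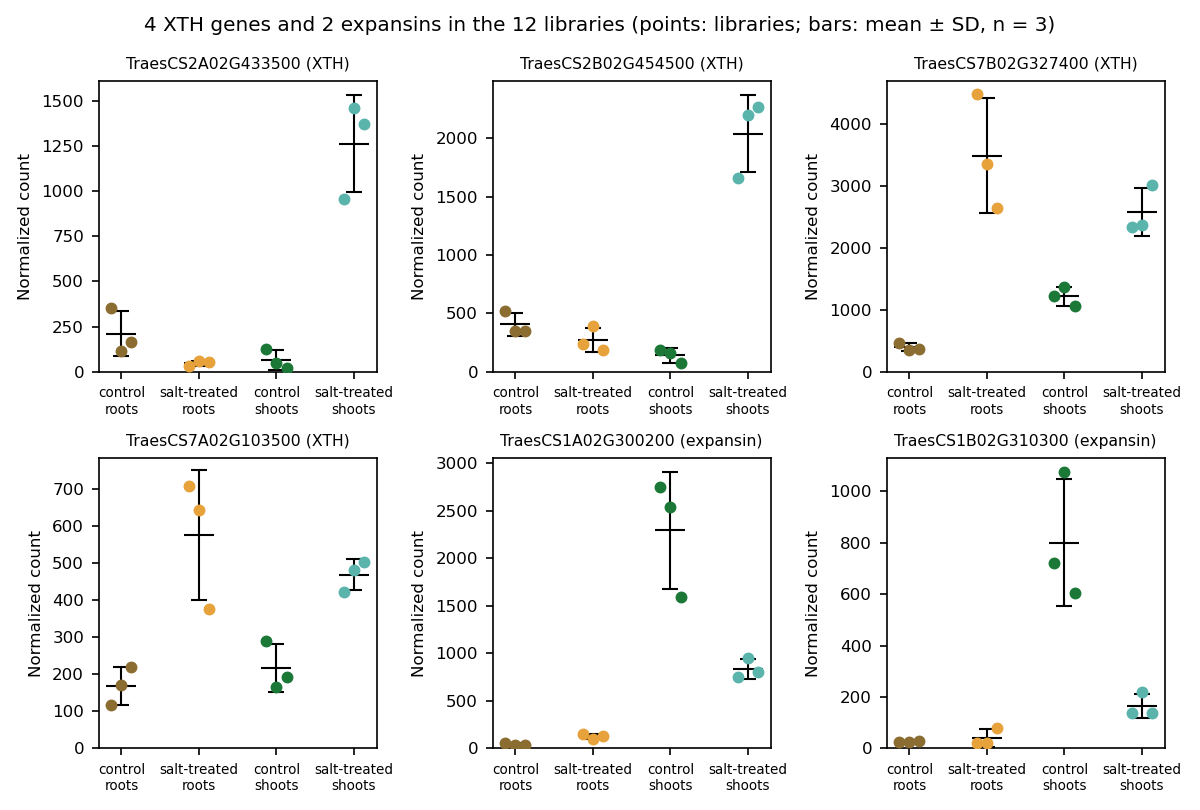
Normalized counts of 4 XTHs and 2 expansins in the 12 libraries; points are libraries, and bars give the mean and SD of 3 libraries per group on axes that start at 0. TraesCS2A02G433500 and TraesCS2B02G454500 are high in salt-treated shoots alone, TraesCS7B02G327400 is higher with salt in both tissues, and the expansins TraesCS1A02G300200 and TraesCS1B02G310300 are highest in control shoots.

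The expansins that fell in shoots were the leading one and a gene on the homoeologous chromosome. TraesCS1A02G300200 (1A: 495191440 to 495193276) held 2748, 2538 and 1592 in control shoots and 755, 948 and 799 in salt-treated shoots. TraesCS1B02G310300 (1B: 533323193 to 533324992) held 720.4, 1077 and 604 against 138, 218 and 139. The groups of both genes were apart, and the log2 values fell by 1.43 (standard error 0.22) and by 2.26 (standard error 0.26).

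These genes held most of the drop in the expansin total of shoots. The sum over the 42 expansins was 5678, 6712 and 5436.5 in control shoots and 3209, 3929.8 and 3833 in salt-treated shoots. The 2 genes alone went from 3468.5, 3615 and 2196 to 893, 1165 and 938. The other 40 expansins summed to 2209, 3097 and 3241 in control shoots and to 2316, 2764.5 and 2896 in salt-treated shoots, which overlap. Among the other expansins of shoots, EXPB2 held 942, 899 and 1006 with salt and TraesCS6A02G307900 went from 812, 1156 and 1094 to 746, 1033 and 1038, both within the range of their controls or overlapping it.

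The most abundant XTHs were lower in salt-treated shoots without being called. TraesCS1A02G396200 went from 9839, 7019 and 6692 to 4744, 6114 and 4921, and TraesCS1B02G424500 from 6872, 4533 and 5004 to 3028, 3445 and 2729. The groups were apart in both, with log2 differences of -0.56 and -0.82. The XTH total of shoots nevertheless overlapped, at 41839, 44631 and 43625 in controls and 39849.7, 46284 and 47871 with salt. In the 3 clusters on 7A, 7B and 7D, 9 of the 23 genes had every salt-treated shoot above every control shoot (16.4% of all genes tested). An example is TraesCS7B02G327000, with 688, 897 and 721 in controls and 1215, 1306 and 1729.5 with salt.

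In roots 1 member was called higher with salt (1.17% of all genes tested) and 2 lower (2.30%) among the 89 that passed the filter. The 12 members with every salt-treated root above every control compare with 17.3% of all genes, and the 28 with every one below with 20.2%. The median log2 difference was -0.50 over the 39 expansins tested and -0.19 over the 50 XTHs, beside -0.02 over all genes, and 7 of the 89 passed the filter through 1 group alone. With all libraries scaled to the same total the counts were 2 higher and 1 lower. These counts hung on single libraries. Without root salt replicate 3, 4 members were called higher and 14 lower, and over all 44737 genes the calls went from 523 higher and 1030 lower to 963 and 1706. Without root control replicate 1, 2 or 3, or root salt replicate 1 or 2, limma called 0 members lower, with 21 to 28 lower at an unadjusted p under 0.05. Without root control replicate 2 or 3 it called 0 higher, with 8 and 11 higher at an unadjusted p under 0.05. Calls among all genes tested also became fewer in each of these fits, but not always to the same degree. With root salt replicate 2 left out, genes called lower went only from 1030 to 943. Members called lower went from 2 to 0 there. Over all genes 0 were called without root control replicate 2, 19 higher and 34 lower without root control replicate 3, and 105 to 222 higher and 153 to 943 lower without each of the other 3 libraries named.

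The member called higher was TraesCS7B02G327400, and both called lower were expansins. TraesCS4A02G034200 fell from 171, 181 and 152 in control roots to 27.6, 25.9 and 59.4, a drop of 2.23 on the log2 scale with a standard error of 0.34. TraesCS3A02G165600 held 17.7, 49.9 and 80.9 in control roots and 0, 0.926 and 1.75 in salt-treated roots. It passed the filter through the control roots alone, so it had to differ. Its fitted log2 difference of -4.61 depends on the added pseudocount, being -6.18 with 0.1 and -2.29 with 10. The member next to it in the cluster, TraesCS3A02G165900, stood at 32, 27.3 and 24 in control roots and at 76, 43.4 and 61.2 in salt-treated roots, so these neighbours lay on opposite sides.

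The expansins that were at or under 3 in every shoot library spread widely among the salt-treated roots. Summed over all 23, control roots held 2425, 2467 and 2539. Salt-treated roots held 890.0, 616.5 and 2628 in replicates 1, 2 and 3. Replicates 1 and 2 are below all controls, and replicate 3 is above them. Of the 23, 20 passed the filter in roots, 4 of them through the controls alone. Replicate 3 was the highest of the salt-treated roots in 19 of these 20, and the median gene stood at 20.5%, 16.3% and 77.2% of its control mean in replicates 1, 2 and 3. The median log2 difference over the 20 was -1.73 with all libraries and -2.49 without replicate 3. In that fit 7 were called lower, beside 1706 of all 44737 genes.

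**Figure D4:**
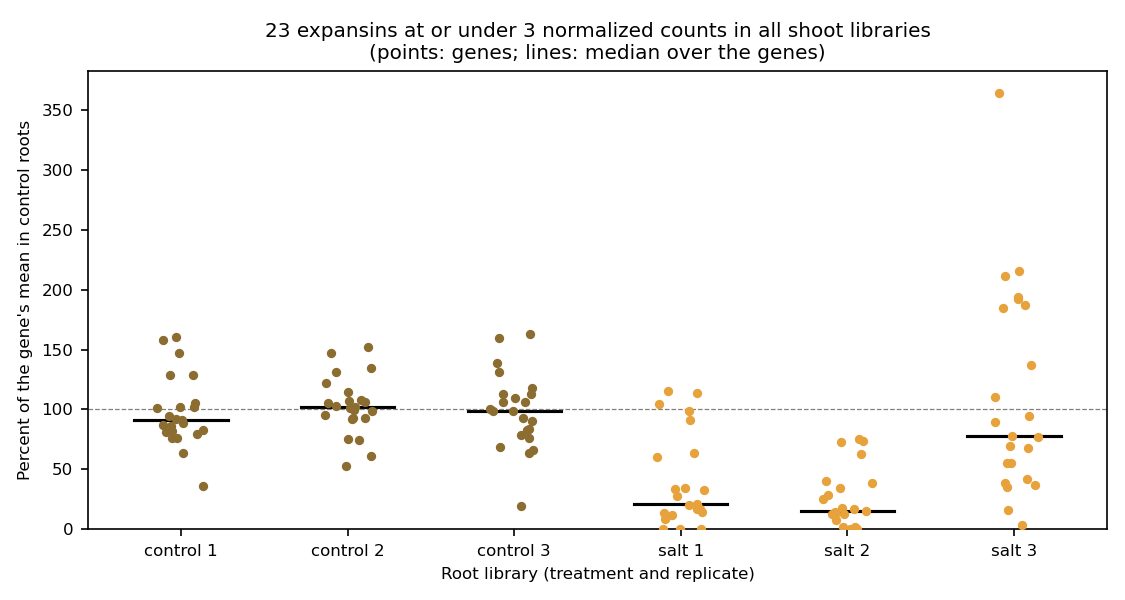
Level of each of the 23 expansins at or under 3 normalized counts in all shoot libraries, as a percent of its mean in control roots, in the 6 root libraries; points are genes and lines the median over genes. Most points lie under 100% in salt replicates 1 and 2, while those of salt replicate 3 spread from 3.54% to 364%.

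Single genes of this set showed the same split. TraesCS4A02G034300 held 340.5, 359 and 455 in control roots and 77.4, 65.7 and 343 in salt-treated roots. TaEXPB5 held 77.3, 40.7 and 262 in salt-treated roots, the last above its highest control of 259. In some expansins replicate 3 exceeded every other root library. TraesCS4A02G339200 held 601 there, against 208 and 111 in the other salt-treated roots and 310.4 to 344 in controls. Outside the set, TraesCS4B02G271000 held 850.5 and TraesCS4A02G034400 held 785 in replicate 3, beside 371 or less in all control roots for both genes. Beta-expansin 1a ran against this order, with 358, 206 and 39.3 in salt-treated replicates 1, 2 and 3 and 81.7 to 86.5 in controls.

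Among the 12 XTHs at or under 3 in every shoot library the sums were 478, 510.1 and 596 in control roots and 288, 229 and 581 in salt-treated roots, with the same replicate highest. The 3 with the largest decrease were TraesCS7A02G331200 (46.2, 98.8 and 72.4 to 3.06, 0 and 15.7), TraesCS7B02G242900 (53.8, 62.3 and 109 to 4.6, 0.926 and 11.4) and TraesCS2A02G498400 (24.4, 27.2 and 16.8 to 0, 0 and 4.37). In each the groups were apart, and none was called here, while the authors listed TraesCS7B02G242900 for salt in roots. The chlorophyll a-b binding sum of root salt replicate 3 was 218, beside 254 and 228 in replicates 1 and 2 and 238 to 935 in control roots. The part that differences between libraries play in these results was not tested.

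The shoot-side clusters on 7A, 7B and 7D singled out another root library. Among the salt-treated roots replicate 2 was the highest for 19 of the 23 genes, and it was the highest of all 6 root libraries for 13. The median gene stood at 48.7%, 384% and 57.3% of its control mean in replicates 1, 2 and 3. Many of these percentages rest on very low levels. Of the 23 genes, 13 had a mean under 10 in control roots, and only 10 passed the filter for salt in roots. TraesCS7D02G419600 stood at 0 in every control root, so its percentage is undefined. For example, TraesCS7B02G326900 held 19.9, 102 and 6.11 in salt-treated roots, and TraesCS7A02G426600 held 3.83, 41.7 and 6.11. These levels are far under the shoot levels of 1239 to 2709 for the same genes. The chlorophyll a-b binding sum of that library was 228, beside 254 and 218 in salt-treated replicates 1 and 3 and 238 to 935 in control roots. What set this library apart was not tested.

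A pair of XTHs outside the clusters showed a similar order among root libraries. TraesCS6A02G266100 held 608, 1230.4 and 1400.4 in control roots and 199, 1117 and 351 in salt-treated roots, and TraesCS6B02G293500 held 374, 688 and 939 and then 58.9, 343 and 215. In both, replicate 1 was the lowest of the controls and replicate 2 the highest of the salt-treated libraries. This order was not general outside the clusters. TraesCS1A02G396200 held 5117, 4735 and 3439 in salt-treated replicates 1, 2 and 3. The XTHs of the 3A and 3B clusters near 59822956 and 74762102 spread less among the replicates. TraesCS3B02G108800 held 662, 776 and 1074 in control roots and 310.3, 247 and 365 in salt-treated roots, and TraesCS3A02G093400 held 410.0, 667 and 819 against 274, 233 and 342. The groups were apart in both, with log2 differences of -1.43 and -1.12, neither called here. The authors listed both for salt in roots. TraesCS3B02G108600 of the same 3B cluster lay on the other side without overlap, at 141, 144 and 152 in control roots and 228, 159 and 198 with salt, a log2 difference of 0.40.

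Other members were higher in salt-treated roots with no overlap but no call here. The authors listed each of those that follow for salt in roots. TraesCS1A02G300200, the expansin that fell in shoots, held 55.2, 37.5 and 35.2 in control roots and 147, 94.4 and 132 with salt. TraesCS5A02G481200 held 21, 24.2 and 20.3 against 63.7, 67.4 and 53.3, and in shoots its groups overlapped (117 to 239 and 140.2 to 210.0). The XTHs TraesCS7A02G427100 and TraesCS7A02G427300 went from 9.24, 8.56 and 11.2 to 32.9, 39.8 and 21, and from 21, 20.2 and 27.9 to 122, 78.7 and 44.5. Their log2 differences were 1.53, 1.45, 1.56 and 1.68, in the order named.

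The difference between the salt response of shoots and that of roots was fitted in 1 model over the 12 libraries. This contrast is in none of the deposited tables, but it is made up of the comparisons that chose the members, so its values are a description as well. Of 103 members that passed the filter, 3 were called with a more positive response in shoots (1.21% of all genes tested) and 3 a more negative one (0.925%). The largest was that of TraesCS2A02G433500, whose roots held 352, 118 and 163 in controls and 31.4, 58.3 and 54.1 with salt. Its shoot response exceeded its root response by 6.52 on the log2 scale, with a standard error of 0.76. For TraesCS2B02G454500, with 522, 349.9 and 350.3 in control roots and 235, 391 and 190.3 in salt-treated roots, the difference was 4.58 with a standard error of 0.50. Both rose in shoots, and in roots neither was called here. TraesCS2A02G433500 was nevertheless lower in salt-treated roots without overlap, by 2.01 on the log2 scale with a standard error of 0.44. The authors listed it for salt in roots. The root groups of TraesCS2B02G454500 overlapped.

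The responses of TraesCS1A02G300200 pointed in opposite directions, with a difference of -2.96 and a standard error of 0.35. TraesCS7B02G327400 rose in both tissues, and its shoot response minus its root response was -2.03 with a standard error of 0.29. For the neighbours TraesCS3A02G165600 and TraesCS3A02G165900 the differences were 4.61 and -3.15, with standard errors of 0.78 and 0.57. The first was listed at 0 in every shoot library, so its value restates the difference in roots, and the second held 4.88, 8.57 and 5.29 in control shoots and 0, 1.23 and 1.07 in salt-treated shoots. The calls of these neighbours were easily lost. That of TraesCS3A02G165600 was lost with a pseudocount of 0.1, and without any 1 of the 6 shoot libraries, of root control replicates 2 and 3 or of root salt replicates 1 and 2. That of TraesCS3A02G165900 was lost with a pseudocount of 0.1, with no filter, with the replicate number as a block, and without any 1 library other than root salt replicate 2. Without root salt replicate 3, 9 members were called more positive and 6 more negative, and over all 51487 genes the calls went from 621 and 476 to 974 and 809.

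**Figure D5:**
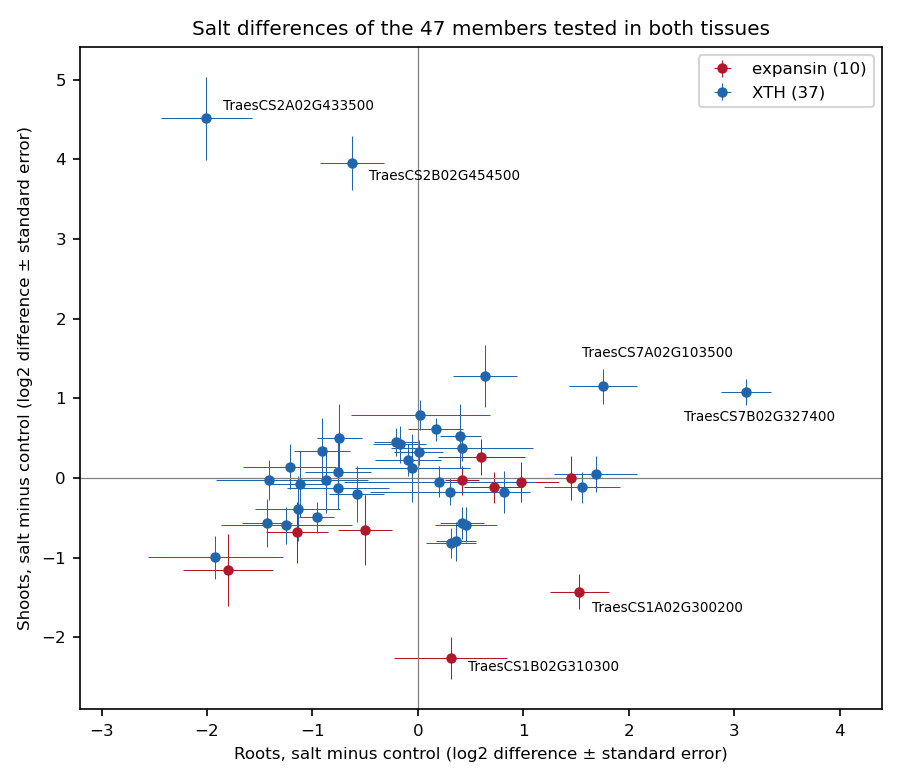
Log2 differences of salt-treated minus control libraries with their standard errors, roots on the x axis and shoots on the y axis, for the 47 members tested in both tissues (10 expansins, 37 XTHs). TraesCS2A02G433500 and TraesCS2B02G454500 stand apart above the rest, TraesCS7B02G327400 lies to the far right, and TraesCS1A02G300200 and TraesCS1B02G310300 lie lowest.

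Other genes related to the cell wall were counted by their descriptions, which again stand only in the comparison tables. They comprised 74 genes for pectinesterases, endoglucanases, beta-galactosidases, cellulose synthases, plasma membrane ATPases, COBRA and fasciclin-like proteins, polygalacturonases, other xyloglucan enzymes and an extensin. In roots 2 of 59 were called higher (1.17% of all genes tested) and 1 lower (2.30%). In shoots limma called 0 of 57 higher (2.30%), with 3 higher at an unadjusted p under 0.05, and 3 lower (2.99%). In shoots 18 of the 57 had every salt-treated library below every control, against 20.2% of all genes tested. The following genes were named after their values were seen. The pectinesterase TraesCS5A02G043800, of a class that removes methyl groups from pectin, rose from 6.71, 12.4 and 8.4 to 55, 48.2 and 34.9 in roots. In shoots it fell from 1400.3, 1928 and 1760 to 687, 1015 and 757. Its shoot response minus its root response was -3.28 on the log2 scale with a standard error of 0.35, the single call among the 71 of these genes that passed the filter there.

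The other calls of this list were a second pectinesterase in roots, TraesCS1A02G341800 (37, 38.8 and 31.9 to 133, 124 and 90.8), and the fasciclin-like TraesCS3B02G272700, which fell from 887, 1299.6 and 1472 to 246, 295 and 407. In shoots the pectinesterase TraesCS1B02G477900 fell from 224, 194 and 171 to 33.2, 48 and 17.1. The beta-galactosidase TraesCS4B02G220500 fell there from 1374, 1253 and 1081 to 597, 604 and 621.

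Near the edge of the selection, the smallest log2 differences of members listed for salt in roots were -1.12 (TraesCS3A02G093400) and -1.15 (TraesCS7A02G399100). The largest of members not listed there were -4.11 (TraesCS7A02G331200) and -3.74 (TraesCS2A02G498400). For shoots the smallest listed were 1.08 (TraesCS7B02G327400) and 1.15 (TraesCS7A02G103500), and the largest not listed were 1.28 (TraesCS4A02G402200) and -1.16 (TraesCS2A02G066600). Genes of these families outside every table carry no description there and were not analysed here.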

How the data were processed

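Poly(A) RNA was made into 12 non-directional libraries and sequenced. The authors trimmed reads (Trimmomatic 0.36), estimated counts with Salmon 0.12.0 against Ensembl Plants transcripts of the IWGSC assembly, and normalized them in DESeq2; the deposited values used here are this signal per gene. Depth in raw reads is unknown from it, and whole reads could not be recovered. Comparison tables gave description and position; their fold changes and p-values, the authors' own tests, were not used. All columns were assigned to a sample (0 left without one).

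Values were fitted as log2(value + 1) with limma 3.58.1 (trend, empirical Bayes; R 4.3.3), over 6 libraries per comparison and over all 12 for the difference of responses. Genes needed at least 10 in at least 3 libraries. The procedure was tested on simulated data. Members and gene lists were chosen with earlier results of these data known, and clusters (gap of 1000000 bases) after positions were seen. Named genes were, per family, the 4 with the largest increase and decrease in each salt comparison, the 4 highest in each control tissue, those called in the difference of responses, and those with a name. Other genes in the text were chosen after their values were seen.

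Same-numbered libraries of control roots and shoots deviated together over 45687 genes (r = 0.121, 0.215 and 0.318), a pairing seen in the data and not stated in the labels. In salt-treated roots and shoots r was 0.301, 0.208 and 0.063 for replicates 1, 2 and 3. Between control and salt-treated libraries of the same tissue r lay between -0.005 and 0.114. Alternatives were another threshold, pseudocounts of 0.1 and 10, other filters, scaling to the same total, the replicate number as a block, 1 fit over all libraries, and leaving out each library. A Casparian strip marker list for roots matched 0 genes. No reference sequence was used.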

Additional observations from a re-analysis of the deposited data

Results flagged for a closer look

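For 6 members the salt response of shoots was called different from that of roots when the difference itself was fitted with limma over the 12 libraries. The comparisons that make up this contrast chose the members, so the values are a description and no p-value is given. On the log2 scale, as the shoot response minus the root response, it was 6.52 for TraesCS2A02G433500, 4.58 for TraesCS2B02G454500, 4.61 for TraesCS3A02G165600, -2.96 for TraesCS1A02G300200, -2.03 for TraesCS7B02G327400 and -3.15 for TraesCS3A02G165900. The calls of TraesCS3A02G165600 and TraesCS3A02G165900 were lost with a pseudocount of 0.1 and when most single libraries were left out, and the former, at 0 in every shoot library, restates its difference in roots. Groups of 3 libraries are too small for a test of outlying samples.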

How the results depend on the processing

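Counts of called members in roots moved most. At an adjusted p under 0.05, salt in roots gave 6 higher and 15 lower, beside 1869 and 3485 of all 44737 genes. The difference of responses gave 8 higher and 7 lower, beside 1691 and 1387 of all 51487 genes. With 1 fit over all 12 libraries salt in roots gave 6 and 9, beside 1284 and 2423 over all genes. Scaling to the same total gave 2 and 1 there, beside 637 and 854 over all genes. The pseudocount of 0.1 gave 1 lower in roots and that of 10 gave 5, beside 811 and 1300 over all genes. That of 10 gave 7 higher for the difference of responses, beside 1067 over all genes. A mean of at least 50 left 1 lower in roots, beside 793 of 30117 genes. It left 29 lower in control shoots against roots, beside 4849 of 32667. In salt-treated shoots against roots it left 23 lower, beside 3457 of 32321. Leaving out 1 library at a time gave 0 to 4 higher and 0 to 14 lower for salt in roots. Over all genes the ranges there were 0 to 963 and 0 to 1706. For salt in shoots it gave 2 to 3 higher and 1 to 2 lower, beside 503 to 952 and 440 to 1147. For the difference of responses it gave 2 to 9 higher and 2 to 6 lower, beside 262 to 974 and 252 to 809. With the replicate block limma called 0 members lower in roots (35 at an unadjusted p under 0.05) and 197 of all 44737 genes. The numbers are not shown to pair the treatments. In the difference of responses this block joined same-numbered control and salt-treated libraries. A block that joined roots and shoots within each treatment was not fitted there, so the effect of such a pairing on that contrast is unknown. The block used changed no other count by more than 1.5 times, although the call of TraesCS3A02G165900 in the difference of responses was lost. Scaling moved the median of all genes from -0.02 to 0.12 for salt in roots, from -0.01 to 0.19 in shoots, from -0.06 to -0.58 for control shoots against roots and from -0.03 to -0.48 with salt, and that of all members in shoots from -0.02 to 0.18. Of 740 alternative log2 differences of named members in the salt comparisons 724 moved by less than 1 SD. A change of sign was counted only for members called in the main fit, and 0 of these reversed. Other members did change sign. With scaling to the same total, 5 of the 10 expansins tested in shoots lay below 0, in place of 9. With 3 pools per group, and with copies that share reads, small differences between members are not detectable.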
